A study of Mus musculus with 4 samples.

Results

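DNA methylation and Polycomb repressive complex 2 (PRC2) are the main chromatin systems that hold genes silent through cell division. Their core enzymes were followed here as 9 genes chosen by name, Dnmt1, Dnmt3a, Dnmt3b, Uhrf1, Hells, Ezh1, Ezh2, Suz12 and Eed, which were read by 14 of the 39429 non-control probes of a mouse whole genome array. Expression was measured in breast cancer cells derived from tumors of MMTV-Neu mice, in which a mammary tumor virus promoter drives the Neu (Her2) oncogene, so every sample is Her2 positive. There were 2 samples labelled Pak1-/- and 2 labelled Pak1+/+, from different tumors per the series design, and the study's methods call the cells cell lines. All of them were grown in medium low in calcium with horse serum, kept 3 h without serum and then given EGF for 15 min before total RNA was extracted. The animals' age and strain were not given in the sources used here.

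Dnmt1 copies methylation marks onto the new DNA strand after replication, and Uhrf1 brings it to the hemimethylated sites. Hells is a chromatin remodeler that opens packed DNA to the methylation enzymes, while Dnmt3a and Dnmt3b can place marks on unmethylated DNA. PRC2 methylates histone H3 at developmental genes. Its catalytic subunit is Ezh2 or the related Ezh1, and Suz12 and Eed are the subunits without which neither is active. Ezh2 is known as the form of dividing cells and Ezh1 as the form that also serves resting cells, and high EZH2 is a known feature of aggressive breast cancer.

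The arrays were alike in quality, with 62.2% to 70.4% of all probes well above background. Correlations across probes were at least 0.9966 within a group and 0.954 to 0.959 between groups (genes are not independent replicates). The probe for Pak1 did not check the labels, since it read 12.21 and 12.25 (normalized log2 intensity) where the label is Pak1-/- and 12.04 and 12.04 where it is Pak1+/+ (difference 0.19, limma adjusted p = 0.070). Directions below therefore follow the labels. The arrays of the groups lay at different positions of 1 slide, so position and genotype cannot be told apart. The sample titles name no tumor or line, so differences between tumors or lines cannot be told apart from genotype either. Of 8 epithelial markers all were tested, with a summed log2 level of 20.05 to 20.07 in the arrays labelled Pak1-/- and 19.82 to 19.83 in the others. Krt8 and Krt18 were between 18.09 and 18.88 on every array and Epcam between 15.01 and 15.33, while 5 markers were higher in the arrays labelled Pak1-/- (Krt14 by 2.83, Cdh1 by 1.19, Krt8 by 0.57, Krt5 by 0.50 and Krt18 by 0.27 on the log2 scale) and Krt7 fell by 1.10, beside 23.3% of all probes higher and 28.6% lower. Of 8 fibroblast markers, 4 (Pdgfrb, Col3a1, Dcn and Lum) never rose well above background, 3 were tested and Col1a1 was higher by 1.12 (9.31 and 8.88 against 8.03 and 7.93, adjusted p = 0.0051), and the log2 of the summed intensity of all 8 was 10.43 to 10.61 against 10.24 to 10.29. The endothelial markers Tek and Emcn were not well above background either, and none of the 3 tested by the brightest probe passed (summed level of 5 markers 13.29 to 13.34 against 13.15 to 13.41). That sum was carried by 1 Kdr probe at 12.99 to 13.27, and a second Kdr probe read 8.05 and 7.92 against 6.61 and 6.63, with only the arrays labelled Pak1-/- well above background. Of the leukocyte markers, Cd79a was well above background on only 1 array, Ptprc was at 7.14 to 7.60 on all 4, and the summed level of 8 markers was 15.68 to 16.20 against 15.42 to 15.56. That sum was carried by 1 Itgam probe at 15.20 to 16.07, whose gene had other probes at 7.35 to 8.23, and 2 of the 6 tested leukocyte markers were lower (Adgre1 by 1.05 and Ptprc by 0.45 on the log2 scale) and none higher, beside 28.6% of all probes lower. The part of such cells in the results was not tested.

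All 14 probes were well above background on all 4 arrays and none was saturated, with spot intensities of 182.6 to 63690.2 over a local background of 35.5 to 47.5. With the brightest probe standing for each gene, 5 of the 9 genes (Dnmt1, Uhrf1, Hells, Ezh2 and Suz12) were lower in the arrays labelled Pak1-/- and 1 (Ezh1) was higher at a limma adjusted p under 0.05, and Dnmt3a, Dnmt3b and Eed did not pass. Over all 27229 probes tested, 28.6% were lower and 23.3% higher by the same rule. A fold of at least 2 was reached by 2 of the lower genes, Uhrf1 and Hells, where 5.6% of all probes were lower by that much and past the threshold. Over all probes, 51.9% passed in either direction. Without overlap between the groups stood 8 of the 9 genes, 6 of them lower and 2 higher, where 78.2% of all probes with 4 values did so and 43.5% did so with the lower values in the arrays labelled Pak1-/-. Lower RNA per cell and fewer cells that express a gene cannot be told apart in such bulk samples.

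**Figure D1:**
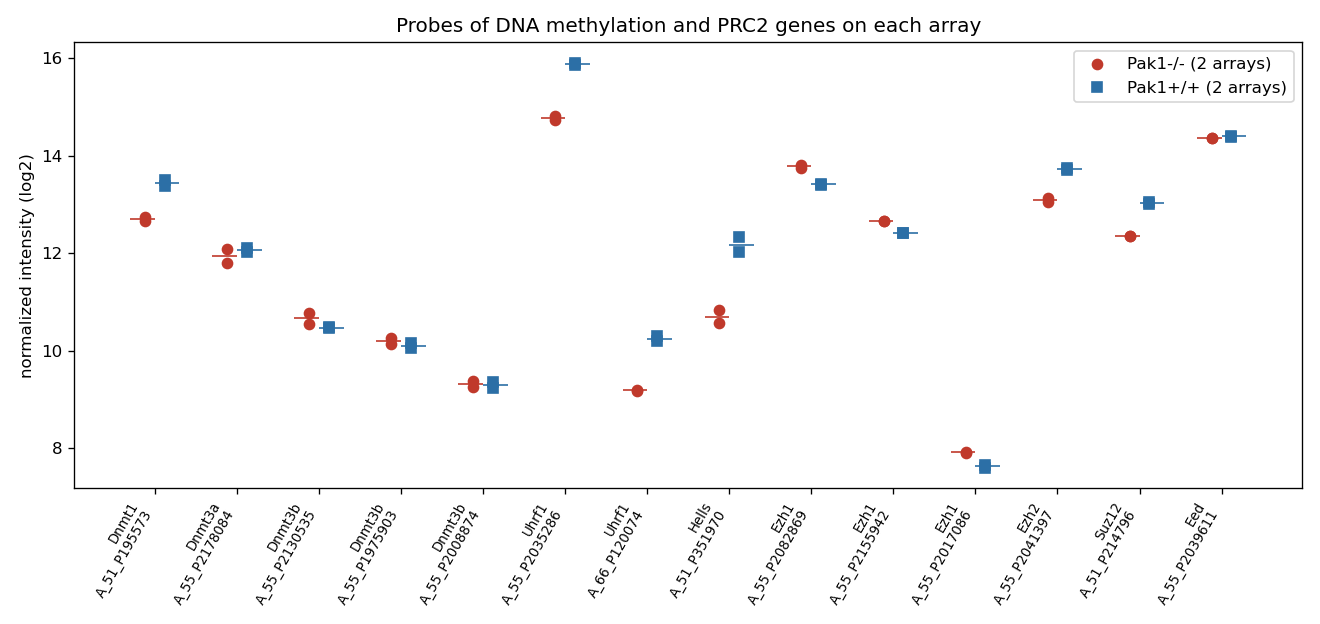
Normalized log2 intensity (vertical axis) of the 14 probes of the 9 genes (horizontal axis) on each of the 2 arrays labelled Pak1-/- (red circles) and the 2 labelled Pak1+/+ (blue squares), with a line at each group mean. Blue lies above red for Dnmt1, Hells, Ezh2, Suz12 and both Uhrf1 probes, and red above blue for all 3 Ezh1 probes, while levels of different probes are not comparable with each other.

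Dnmt1, Uhrf1 and Hells were all lower in the arrays labelled Pak1-/-. The Dnmt1 probe (A_51_P195573) lies on mm9 at chr9:20711973-20712341 on the minus strand. It spans 369 genomic bases for a length of 60, so it crosses at least 1 splice junction and reads spliced RNA. Its sequence is shown because it identifies the transcript part that was measured.
Dnmt1: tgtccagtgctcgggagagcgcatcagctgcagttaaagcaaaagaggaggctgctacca
Dnmt1 had a normalized log2 intensity of 12.67 and 12.75 in the arrays labelled Pak1-/- and of 13.51 and 13.39 in those labelled Pak1+/+. Both values of the first group were below both of the second. The log2 difference was -0.74 (SE 0.082, limma adjusted p = 0.0024), which is a level 1.67-fold lower, and it stayed between -0.80 and -0.66 under the alternative settings (adjusted p 0.0014 to 0.019).

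Uhrf1 was read by 2 probes at different places of the gene, and they gave nearly the same answer. The brighter (A_55_P2035286, chr17:56462770-56462829, plus strand) was at 14.82 and 14.73 in the arrays labelled Pak1-/- and at 15.86 and 15.91 in those labelled Pak1+/+. The log2 difference was -1.11 (SE 0.075, limma adjusted p = 0.00070), a 2.15-fold difference in level. The other probe (A_66_P120074, chr17:56451668-56452321, plus strand) is printed because it crosses a splice junction, with 654 genomic bases for its length, and so serves as a second reading from spliced RNA.
Uhrf1: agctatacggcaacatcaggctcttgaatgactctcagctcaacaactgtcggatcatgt
This dimmer probe gave 9.18 and 9.20 against 10.19 and 10.30, with a log2 difference of -1.06 (SE 0.075, limma adjusted p = 0.00078). The groups were apart by far more than their replicates for both probes, whose SDs were 0.0127 to 0.0764 (n = 2 each).

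Hells had the largest change of the 9 genes. It was read by 1 probe (A_51_P351970, chr19:39039914-39039973, plus strand).
Hells: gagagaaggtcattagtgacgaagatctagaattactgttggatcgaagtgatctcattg
Its normalized log2 intensity was 10.85 and 10.56 in the arrays labelled Pak1-/- and 12.33 and 12.03 in those labelled Pak1+/+. The replicates of both groups differed more than for the other genes that were lower (SD 0.200 and 0.217, n = 2 each), yet the groups stayed far apart. The log2 difference was -1.47 (SE 0.15, limma adjusted p = 0.0020), or 2.78-fold, and only 2.53% of all tested probes had a lower value. Leaving out single samples moved it between -1.63 and -1.32. Over the 4 arrays, the genes with the pattern nearest to that of Hells, by the Euclidean distance of centred log2 values among 21992 genes, were an Ensembl transcript with no gene symbol (distance 0.112), Grik5 (0.119) and Grb14 (0.120). With 4 arrays in 2 groups, many genes share such a pattern.

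The enzymes that place marks on unmethylated DNA did not show a change that passed the test. Dnmt3a (A_55_P2178084, chr12:3914320-3914379, plus strand) was at 12.09 and 11.81 in the arrays labelled Pak1-/- and at 12.11 and 12.03 in those labelled Pak1+/+. The groups overlapped, and the log2 difference of -0.12 (SE 0.12, 95% interval -0.43 to 0.19, limma adjusted p = 0.44) changed sign to 0.024 without Pak1-/- replicate 2. Dnmt3b was read by 3 probes within chr2:153512098-153513462 on the plus strand. The brightest of them gave 10.77 and 10.56 against 10.49 and 10.47, with a difference of 0.19 (SE 0.097, 95% interval -0.066 to 0.44, limma adjusted p = 0.17). The other probes gave differences of 0.092 and 0.026 (adjusted p = 0.42 and 0.83), and the groups overlapped for both. The intervals of the Dnmt3b probes leave room for an increase of up to 0.44, and that of Dnmt3a for a decrease of up to 0.43, on the log2 scale.

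**Figure D2:**
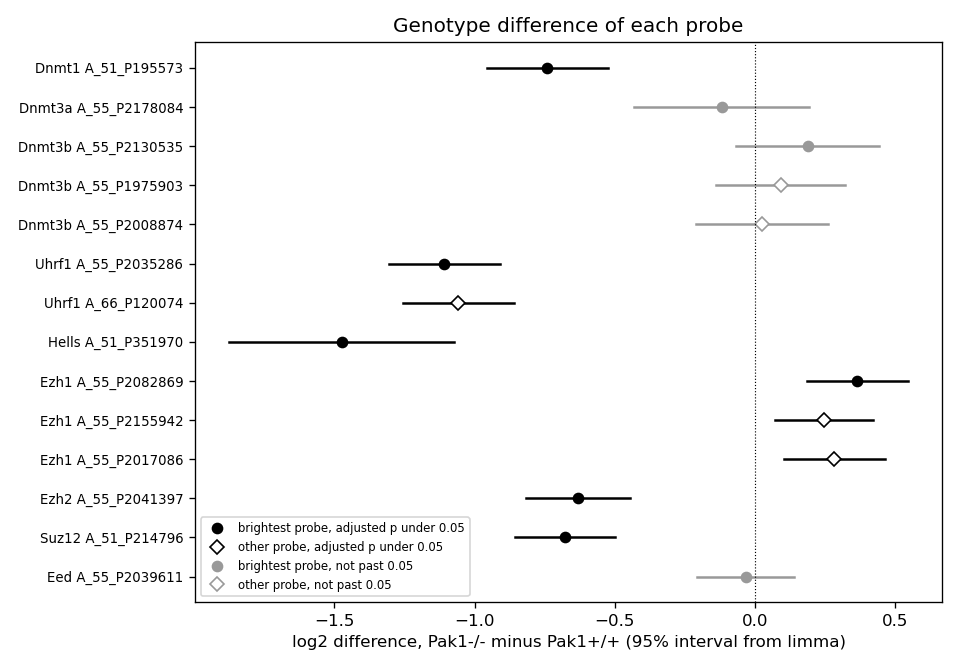
Log2 difference of each probe, arrays labelled Pak1-/- minus those labelled Pak1+/+ (horizontal axis, points), with its 95% interval from limma (lines), over 2 arrays per group. Filled circles are the brightest probe of a gene and open diamonds its other probes, black where the adjusted p is under 0.05 and grey where it is not, and the lowest value is that of Hells at -1.47.

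Within PRC2, the catalytic subunits moved in opposite directions. Ezh2 (A_55_P2041397, chr6:47480307-47480366, minus strand) was at 13.06 and 13.13 in the arrays labelled Pak1-/- and at 13.71 and 13.75 in those labelled Pak1+/+. The difference was -0.63 (SE 0.071, limma adjusted p = 0.0025), or 1.55-fold, and it kept its call under all 15 alternatives run for it (-0.67 to -0.55). Ezh1 lay higher in the arrays labelled Pak1-/- for all 3 of its probes, with no overlap of the groups.

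The brightest Ezh1 probe (A_55_P2082869, chr11:101052430-101052489, minus strand) gave 13.81 and 13.76 in the arrays labelled Pak1-/- and 13.41 and 13.43 in those labelled Pak1+/+. Its difference was 0.37 (SE 0.069, limma adjusted p = 0.012), which is 1.29-fold. The other probes gave differences of 0.25 (A_55_P2155942, adjusted p = 0.033) and 0.28 (A_55_P2017086, adjusted p = 0.025). The dimmest of the 3 lies at chr11:101054534-101054593, upstream of the others in the direction of transcription, and its sequence is given as the reading farthest from the bright one.
Ezh1: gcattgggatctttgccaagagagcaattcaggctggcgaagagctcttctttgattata
Ezh1 rests on small differences. Without Pak1+/+ replicate 1 the brightest probe gave 0.35 (adjusted p = 0.068) and without Pak1+/+ replicate 2 it gave 0.38 (adjusted p = 0.058), so the call was lost while the value hardly moved, and the adjusted p ranged from 0.0057 to 0.068 over the alternatives.

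Of the subunits shared by both forms of the complex, Suz12 was lower and Eed did not pass. Suz12 (A_51_P214796, chr11:79847251-79847310, plus strand) was at 12.37 and 12.36 in the arrays labelled Pak1-/- and at 13.06 and 13.02 in those labelled Pak1+/+. The difference was -0.68 (SE 0.068, limma adjusted p = 0.0018), or 1.60-fold. Eed (A_55_P2039611, chr7:97103264-97103323, minus strand) was at 14.37 and 14.36 against 14.41 and 14.40. These 4 values lay close together, and although the groups do not overlap, the difference of -0.033 (SE 0.066, 95% interval -0.21 to 0.14, limma adjusted p = 0.70) did not pass and became 0.063 under cyclic loess normalization. Other parts of Eed or its protein were not measured.

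To set genes beside each other, the log2 ratio of their probes was taken on each array for 5 pairs. The pairs were chosen after the values had been seen and restate the differences above, so they are given as a description with no test, and the level of a ratio depends on the probes. The ratio of Ezh1 to Ezh2 was 0.75 and 0.63 in the arrays labelled Pak1-/- and -0.30 and -0.31 in those labelled Pak1+/+, and the group means differed by 1.00. The ratio of Suz12 to Eed was -2.01 and -2.01 against -1.34 and -1.38, and that of Ezh2 to Eed was -1.31 and -1.23 against -0.70 and -0.65. Dnmt1 over Dnmt3b gave 1.90 and 2.19 against 3.02 and 2.92, and Dnmt1 over Dnmt3a gave 0.58 and 0.94 against 1.40 and 1.36. In the last pair the replicates labelled Pak1-/- were the farthest apart.

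**Figure D3:**
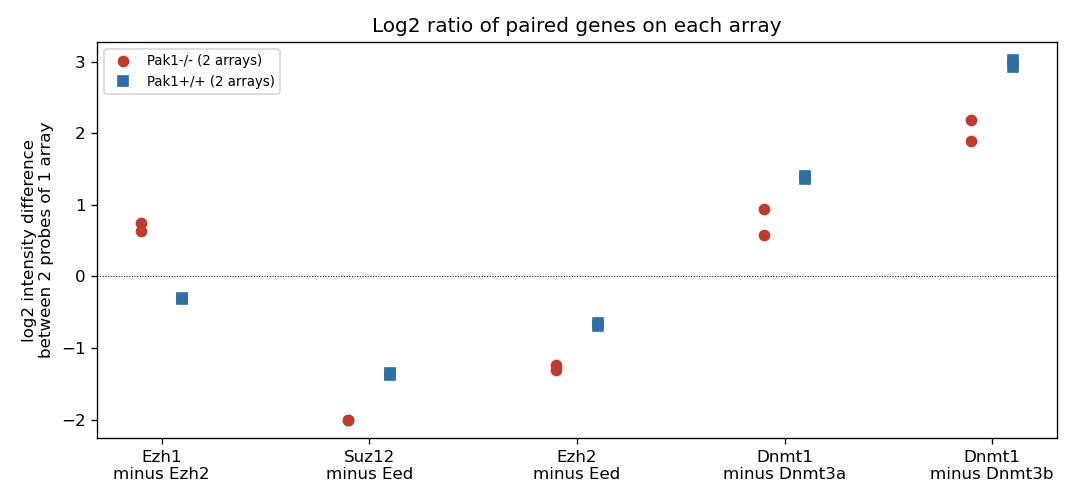
Log2 ratio of the brightest probes of 2 genes on the same array (vertical axis) for 5 pairs of genes (horizontal axis), with the 2 arrays labelled Pak1-/- as red circles and the 2 labelled Pak1+/+ as blue squares. The groups are apart for every pair, and the ratio of Ezh1 to Ezh2 lies above 0 in red (0.63 and 0.75) and below 0 in blue (-0.31 and -0.30).

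Of 24 partners of the DNA methyltransferases (readers, erasers, Uhrf1 relatives and enzymes of histone H3 lysine methylation), all were tested, 9 were lower, 5 higher and 10 did not pass, beside 28.6% lower and 23.3% higher over all probes. The median log2 difference of -0.052 was that of all probes tested. By the brightest probe of each gene, the largest decrease was that of Mbd2, a methyl-CpG reader (13.26 and 13.31 against 14.12 and 14.08, difference -0.82, adjusted p = 0.0012). Suv39h1, a histone methyltransferase of silent heterochromatin, fell by 0.76 (adjusted p = 0.0098), and Cdca7, the partner that activates the Hells remodeler, fell by 0.59 (adjusted p = 0.0029). By the same measure the largest increase was that of Tet2, an enzyme that oxidises methylated cytosine toward removal, with 12.79 and 12.53 against 11.90 and 11.87 (difference 0.77, adjusted p = 0.0045), and a second probe of it was also higher (0.62). The methyl-DNA binding factors Zbtb38 and Zbtb4 rose by 0.61 (adjusted p = 0.0048) and 0.36 (adjusted p = 0.023). Ehmt1, a histone methyltransferase, and Tet1 are exceptions, named for probes other than the brightest. Ehmt1 did not pass by its brightest probe (-0.023), but its second probe was higher by 0.80 (adjusted p = 0.0020). The brightest Tet1 probe gave -0.0046 (adjusted p = 0.97) and the dimmest 0.38 (adjusted p = 0.073), so neither passed. The remaining Tet1 probe was higher by 0.58. Tet3 is uncertain, since its brightest probe was lower (-0.32) and its other probes were higher (0.41 and 0.77), each past the threshold, and it was the only gene with such a conflict among 32 listed genes with several tested probes on 1 strand.

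Of 28 Polycomb partners, 27 were tested, 8 were lower, 9 higher and 10 did not pass (median -0.11), and the same shares over all probes, 28.6% and 23.3%, stand beside these counts. In this list Cbx7 was too dim on every array. By the brightest probe, the accessory PRC2 subunit Phf19, which helps the complex onto chromatin, had the largest decrease (8.02 and 8.16 against 9.46 and 9.29, difference -1.29, adjusted p = 0.00092). Pcgf6, of a variant PRC1 complex, fell by 0.86 (adjusted p = 0.0011) and Rbbp7, a histone-binding PRC2 subunit, fell by 0.66 (adjusted p = 0.0023). Rbbp4, the near relative of Rbbp7 in the same complex, rose by 0.58 (adjusted p = 0.012), and it was named after its value was seen. A second Rbbp4 probe was not well above background on any array (6.31 to 6.45). The largest increases by the brightest probe were those of Kdm6b, a demethylase that removes the PRC2 mark (13.19 and 13.10 against 12.27 and 12.15, difference 0.93, adjusted p = 0.0014), the PRC1 subunit Phc2 (0.74, adjusted p = 0.0017) and Jarid2, a PRC2 cofactor (0.71, adjusted p = 0.0030).

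Dnmt1, Uhrf1, Hells, Ezh2 and Suz12 are known to be transcribed more in dividing cells. They were picked after their calls were seen, and a list of proliferation genes was set beside them. Of 20 such genes, 19 were tested, 18 were lower, none was higher and Plk1 did not pass (adjusted p = 0.0501), where 28.6% of all probes were lower and 23.3% higher. Aurkb was too dim on every array. The median log2 difference was -0.87, against -0.63 for the 9 genes and -0.052 for all probes tested. The log2 of the summed intensity of the list was 18.59 and 18.68 in the arrays labelled Pak1-/- and 19.58 and 19.51 in those labelled Pak1+/+. The largest decreases were those of Rrm2, a subunit of ribonucleotide reductase (-1.84, adjusted p = 0.00040), the replication factor Gins2 (-1.21, adjusted p = 0.00072) and the thymidylate synthase Tyms (-1.17, adjusted p = 0.0014). Growth was not measured here, and the part of proliferation in the decrease of the 5 genes was not tested.

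**Figure D4:**
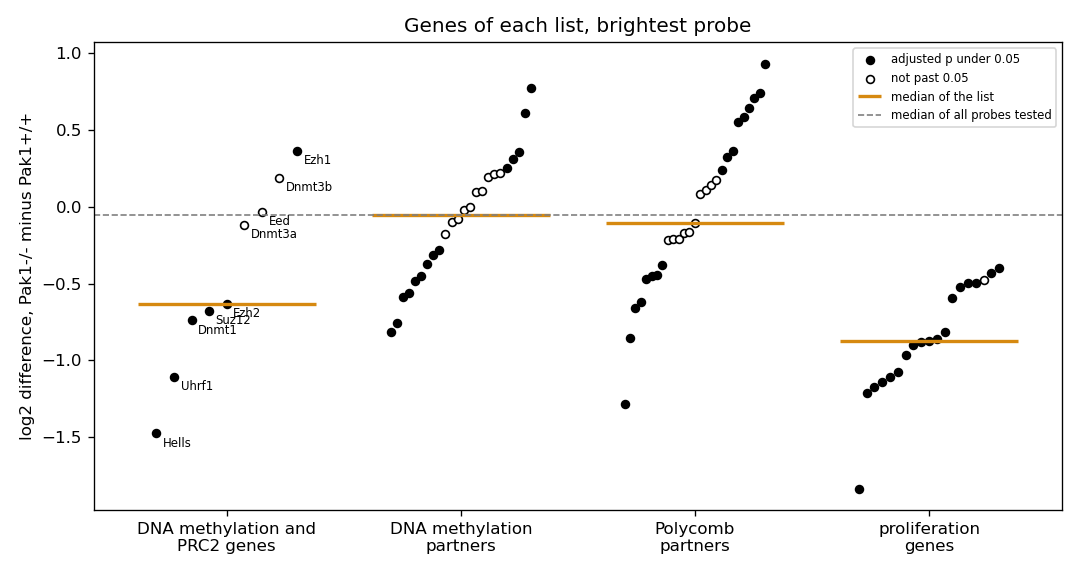
Log2 difference, arrays labelled Pak1-/- minus those labelled Pak1+/+ (vertical axis), of the tested genes of 4 lists (horizontal axis), 1 point per gene at its brightest probe, ordered within a list by value. Filled points have an adjusted p under 0.05, the orange line is the list's median (-0.63 for the 9 genes, -0.052 and -0.11 for the partner lists and -0.87 for proliferation) and the dashed line the median of all probes tested.

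Promoters of the 9 genes were searched for the core of the site bound by E2F factors, which switch on genes of DNA replication, because the 5 lower genes moved together. The letters searched were TTCCCGC or TTGGCGC or TTGCCGC or TTCGCGC, on both strands and with overlapping matches allowed, in RefSeq windows of GRCm38.p6 that run from 250 bases before to 50 bases after each annotated start. All 9 genes matched the table, with 14 windows. The core was found in 6 windows of 5 genes, which were Dnmt1, Uhrf1, Hells, Ezh2 and Suz12, and in no window of Ezh1, Eed, Dnmt3a or Dnmt3b. Over the whole table, 10.9% of 27025 genes held it in any window and 9.6% of 32851 windows did. Among the 18213 windows within the GC range of these 14 (51.3% to 82.3%) the share was 15.1%, and the median GC content was 67.0% in the member windows with a match and 66.7% in those without. Dnmt1 and Dnmt3a had 3 windows each and Uhrf1 had 2, which gives more chances of a match.

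The Hells promoter is printed in full up to the start, since Hells changed most, at chr19:38930740-38930989 on the plus strand of GRCm38.p6. Capitals mark the matches, the first as searched and the second on the other strand.
Hells: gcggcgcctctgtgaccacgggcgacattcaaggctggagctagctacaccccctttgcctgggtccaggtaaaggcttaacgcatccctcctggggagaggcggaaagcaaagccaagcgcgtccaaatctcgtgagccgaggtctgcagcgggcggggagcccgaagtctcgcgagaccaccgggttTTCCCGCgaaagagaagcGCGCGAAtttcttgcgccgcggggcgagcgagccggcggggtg
Of the other 4 genes, 30 bases around a match (capitals) are given to show how the matches differ in letters and place.
Ezh2: ggttgctgcgtTTGGCGCtcggtccggtcg
Suz12: gacccctcattTTCCCGCgaattcagttca
Uhrf1: tgctttctcgcTTCCCGCcacagcgccagc
Dnmt1: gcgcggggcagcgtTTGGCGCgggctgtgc
They lie at chr6:47595008-47595037 (minus strand), chr11:79992877-79992906 (plus), chr17:56303278-56303307 (plus) and chr9:20952574-20952603 (minus). Counted from the annotated start, with negative values before it, the first base of the match is at 5 in Ezh2, -218 in Suz12, -48 in Uhrf1 and 35 in Dnmt1, where the window holds further matches at -219 and -158. Binding of a factor was not measured, and the match is a description of the letters. The motif was chosen with earlier results of these data known, so how it splits the genes is no test. The part of E2F factors or of GC content in the differences was not tested.

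Genes that these systems are known to hold silent were looked up as well. Of 12 germline genes known to be silenced by DNA methylation, 7 were too dim on every array and 4 were tested, too few to set against the shares over all probes. Stra8, a meiosis gene, was well above background only in the arrays labelled Pak1-/- (8.0 and 7.59 against 6.31 and 6.10), at least 1.91-fold higher. Since it passed the filter on dim probes only through the group where it is high, its call is no test of a difference. Sycp3, of the meiotic chromosome axis, was higher by 1.27 (8.45 and 8.53 against 7.40 and 7.04, adjusted p = 0.0023) and was well above background on 1 of the 2 arrays labelled Pak1+/+. It would not have met the filter without the group where it is high. A second Sycp3 probe was not well above background on any array. Sycp1, the partner of Sycp3, was lower by 1.03 on the log2 scale (8.27 and 8.01 against 9.27 and 9.08, adjusted p = 0.0030), and Taf7l did not pass.

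Of 12 developmental genes known as Polycomb targets, 9 were tested, 3 were higher, 3 lower and 3 did not pass, which is near the shares of 23.3% higher and 28.6% lower over all probes. Lhx2, a transcription factor of development, was higher by 3.25 (9.79 and 10.08 against 6.82 and 6.57, adjusted p = 0.00023), with 1 of 2 arrays labelled Pak1+/+ well above background. Without the group where it is high, Lhx2 would not have met the filter, so its call leans on that group. Gata4 and Gata6, transcription factors of endoderm and heart, were higher by 2.09 (adjusted p = 0.00028) and 1.29 (adjusted p = 0.00042). The cell cycle inhibitors Cdkn2a and Cdkn2b, classic targets of Polycomb silencing, were not well above background in either array labelled Pak1-/-. By its brightest probe Cdkn2b was at 13.11 and 13.28 in the arrays labelled Pak1+/+ and at least 95.5-fold lower in the others. Cdkn2a by that measure was at 11.20 and 11.44 and at least 26.0-fold lower. These bounds hold for 1 probe of each gene, since the groups lay closer together for the second probes. In arrays labelled Pak1+/+ against the others, the second Cdkn2b probe read 11.39 and 11.54 against 6.43 and 6.32. That of Cdkn2a read 8.07 and 8.29 against 6.21 and 6.22. Both genes passed the filter only through the group where they are high. The 3 lower genes of this list therefore hold 2 calls that are no test. Sox17 fell by 0.40 (adjusted p = 0.011), with 1 of 2 arrays labelled Pak1-/- well above background. It too would not have met the filter without the group where it is high. Neither DNA methylation nor histone marks were measured, and whether the levels of these genes follow those of the enzymes was not tested.

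The calls of the 5 lower genes held under all 15 alternatives run for each of them, in other background corrections, normalizations, filters and the deposited table as well as without each sample in turn. Not every alternative could move a value. No spot of these genes was flagged as an outlier, so keeping such spots left their values as they were. Dnmt1, Hells, Ezh2 and Suz12 had a single probe, so the mean over probes was the same value.

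**Figure D5:**
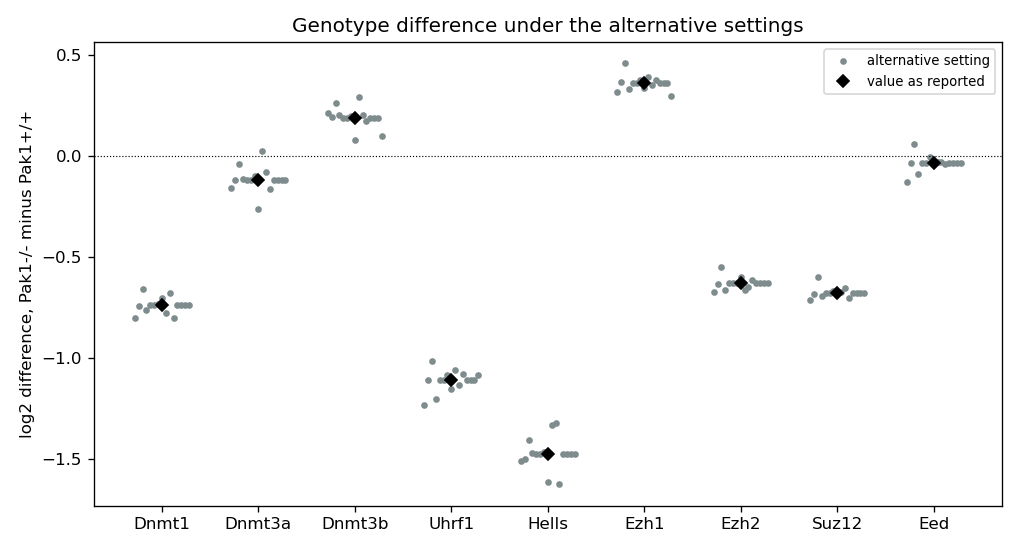
Log2 difference, arrays labelled Pak1-/- minus those labelled Pak1+/+ (vertical axis), of the brightest probe of each of the 9 genes (horizontal axis) as reported (black diamonds) and under each alternative setting (grey points). Dnmt1, Uhrf1, Hells, Ezh2 and Suz12 stay below 0 and Ezh1 above it, while Dnmt3a reaches 0.024 and Eed 0.063 on the other side of 0.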

How the data were processed

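Total RNA was hybridized to 1-color (Cy3) Agilent arrays. Linear intensities were deposited as scanner files made, per the file headers, with Agilent Feature Extraction 9.5, with no normalization between arrays. The authors also deposited a log2 table, normexp corrected and quantile normalized per the study's methods, with some values empty. Here, normexp correction with an offset of 50, quantile normalization and the moderated test of limma 3.58.1 (R 4.3.3, two-sided, genotype only) were applied. Flagged outlier spots were left out. A probe was kept (27229 in all) if 2 or more of the 4 arrays had it well above background, and p-values were adjusted over all of them (Benjamini-Hochberg, threshold 0.05). The offset and the filter were set here, and the offset understates changes of dim probes. With 2 arrays per group, their number limits the precision, and p-values measure only the spread between these samples. The fit was tested on simulated data.

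Probes were matched to the 9 genes by the file's gene name, and to listed genes also by accession in a GRCm38.p6 RefSeq table (26055 of 32334 accessions matched). Probe coordinates are those of the files (mm9), and exons or untranslated regions were not assigned. A probe dim on both arrays of 1 group has only a bound: the bright group's mean against the dim group's mean of the higher of its own value and the lowest value well above background on each array. The genes, lists and promoter motif were chosen with earlier results of these data known. Named partners are the 3 largest changes past the threshold in each direction per list, and exceptions are stated. The values of 1 listed gene are not reported here. The shared replicate numbers did not pair the samples (r of their deviations -0.028). Alternatives covered background correction, normalization, filter, deposited table, outlier spots, probe choice, threshold, replicate block and single samples left out.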

Additional observations from a re-analysis of the deposited data

How the results depend on the processing

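The count of 5 lower genes held under all alternatives. The count of 1 higher gene (Ezh1) became 0 at an adjusted p under 0.01, and ran from 0 to 1 when single samples were left out, where the lone sample's spread was assumed to be that of the other genotype. Under a replicate block on the shared numbers, 5 genes were lower and 1 higher, Ezh1's 2 other probes lost their calls (adjusted p = 0.072 and 0.054), and 13211 of all probes passed against 14132. At an adjusted p under 0.01, which is stricter by construction, 8878 probes passed, 4694 lower and 4184 higher, and leaving out single samples gave 10307 to 12164. Under cyclic loess more probes were higher (7324) than lower (6647), and the share of calls that were higher went from 44.9% to 52.4%. Values that changed sign were none of the calls: Eed under cyclic loess (0.063), and, without single samples, Dnmt3a (-0.26 to 0.024) and the dimmest Dnmt3b probe (-0.042 to 0.093). The cause was not tested. Over the 14 probes, 183 values gave the call and direction reported, 18 no longer passed, all of them Ezh1 probes, and 4 changed sign. Probes of these 9 genes were well above background throughout, so signal limits mainly the dim target genes, some of which have only bounds.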
